A study of Mus musculus with 6 samples.

Results

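Genes for the receptors of IL-5, IL-6 and IL-21 were followed in bone marrow long-lived plasma cells of young and old mice. With them were a kinase, a transcription factor and a feedback inhibitor of cytokine signalling, and the inhibitory IgG receptor Fcgr2b. The 10 genes were chosen by symbol: Il5ra, Csf2rb, Il6ra, Il6st, Il21r, Il2rg, Jak1, Stat3, Socs3 and Fcgr2b. All 10 were among the 13642 genes of the deposited table. RNA sequencing had been done on 6 libraries of C57BL/6J mice, 3 from young females of 2 to 3 months (Jackson Laboratory or a UCLA colony) and 3 from old males of 17 to 19 months (National Institute on Aging colony), so age, sex and supplier cannot be told apart. No treatment or mutation is given for either group. The sorted cells were high in CD138 and lacked B220, IgD, CD11b, Gr-1 and the T cell receptors. The labels describe independent groups of mice without the number of animals per library, so the spread between libraries may be partly technical. The study asked how these cells relate to the myeloid shift of ageing marrow, and the comparison here asks whether growth factor receptor transcripts differ with age.

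Plasma cells do not divide and depend on signals from their surroundings. Each receptor pairs a chain that binds its own cytokine with a chain shared by several cytokines: Il5ra with the common beta chain Csf2rb, Il6ra with gp130 (Il6st), and Il21r with the common gamma chain Il2rg. Bound receptors activate JAK kinases, which phosphorylate STAT factors. IL-6 and IL-21 act largely through STAT3, and STAT3 induces Socs3, which binds gp130 and shuts the signal down. Fcgr2b binds IgG immune complexes and carries an inhibitory motif, and in mice its crosslinking can kill plasma cells.

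Levels are FPKM, which correct for gene length and library size and so can be compared between genes. Averaged over the 6 libraries, the order was Il2rg (56.5 FPKM), Jak1 (48.5), Csf2rb (39.8), Il5ra (30.3), Il6st (29.2), Fcgr2b (18.9), Stat3 (13.9), Il6ra (5.18), Il21r (0.912) and Socs3 (0.166). Neighbours in this order overlapped in their library values except Stat3, whose lowest value of 9.25 FPKM lay above the highest Il6ra value of 8.70. The lowest values were thus those of the IL-6 and IL-21 binding chains and of the feedback inhibitor.

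**Figure D1:**
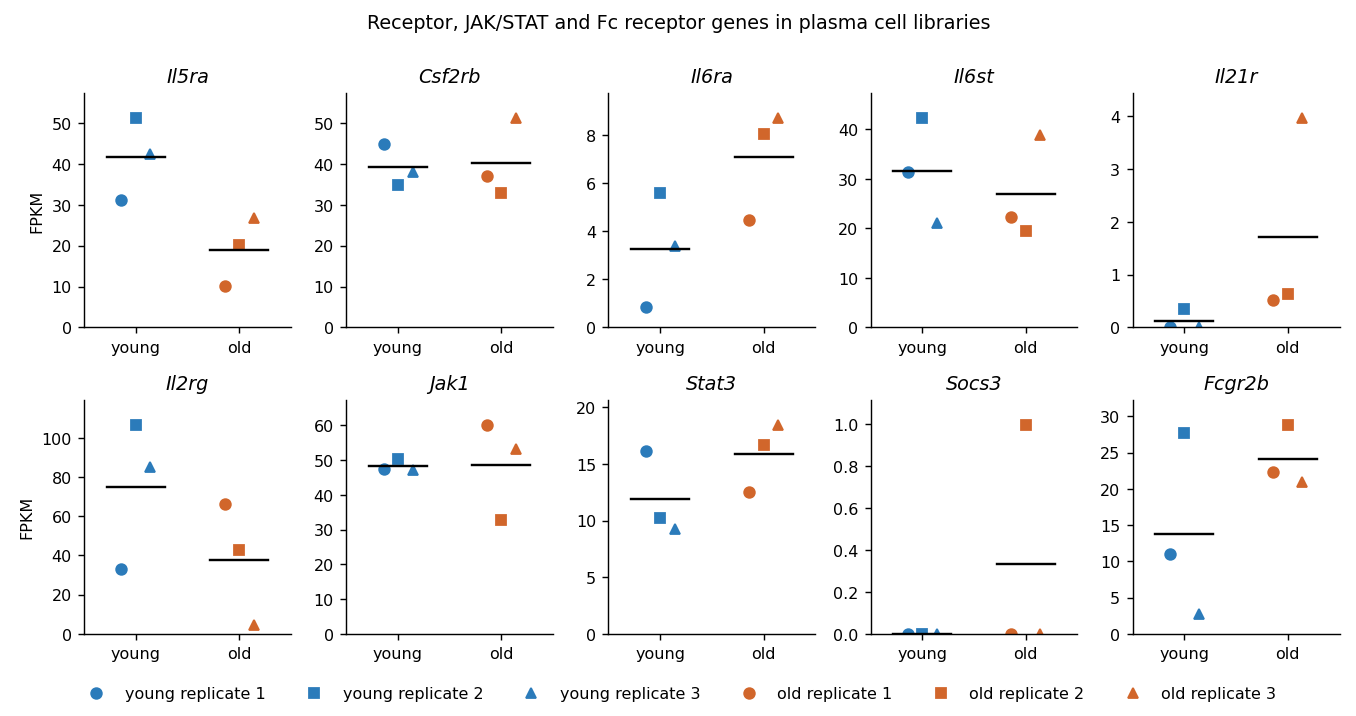
FPKM of each of the 10 genes (vertical axes from 0, scaled per gene) in the young and old libraries, with 1 symbol per replicate and a bar at each group mean. Il5ra is at 31.3 FPKM or more in young and at 26.8 or less in old libraries, and Il2rg is at 4.35 in old replicate 3.

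Old replicate 3 stood apart from the other libraries in its cell type markers. All 10 plasma cell markers were lowest there, with a summed level of 9087 FPKM against 20119 to 23367 in young libraries and 22913 and 23138 in the other old ones, though all 10 were above 1 FPKM in every library. Basophil and mast cell markers summed to 669 FPKM there and to 11.4 to 77.5 elsewhere, led by Prss34 (274) and Mcpt8 (265), and 5 of their 6 genes were highest there. Monocyte and macrophage markers summed to 883 FPKM against 97.2 to 360 elsewhere, and erythroid and megakaryocyte markers to 697 against 8.72 to 240. The neutrophil marker sum was highest in old replicate 2, at 1292 FPKM against 259 to 935 elsewhere, of which S100a9 made up 749. Of the 10 genes of that list 4 were highest in old replicate 3: Elane (220 FPKM), Ctsg (282), Mpo (264) and Prtn3 (86.2). The granule genes Ltf, Camp and Ngp were instead highest in old replicate 2, at 38.8, 88.1 and 194 FPKM. In old replicate 3 these were at 3.43, 0.164 and 38.4 FPKM. Elane and Ctsg, 2 of the 10 neutrophil genes, did not overlap between the groups, with old values higher. Among all genes with a mean of at least 1 FPKM, 8.78% did so. Ctsg separated only by 0.538 FPKM in young replicate 1 against 0.569 in old replicate 1. The monocyte gene Lyz2, 1 of 7 tested on its list to separate this way, was at 26.7, 97.1 and 99.1 FPKM in young and 179, 196 and 516 in old libraries. T and NK cell markers were at 29.5 FPKM in old replicate 3 and 10.3 to 23.5 elsewhere, and plasmacytoid dendritic cell markers at 176 within a range of 58.3 to 302.

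**Figure D2:**
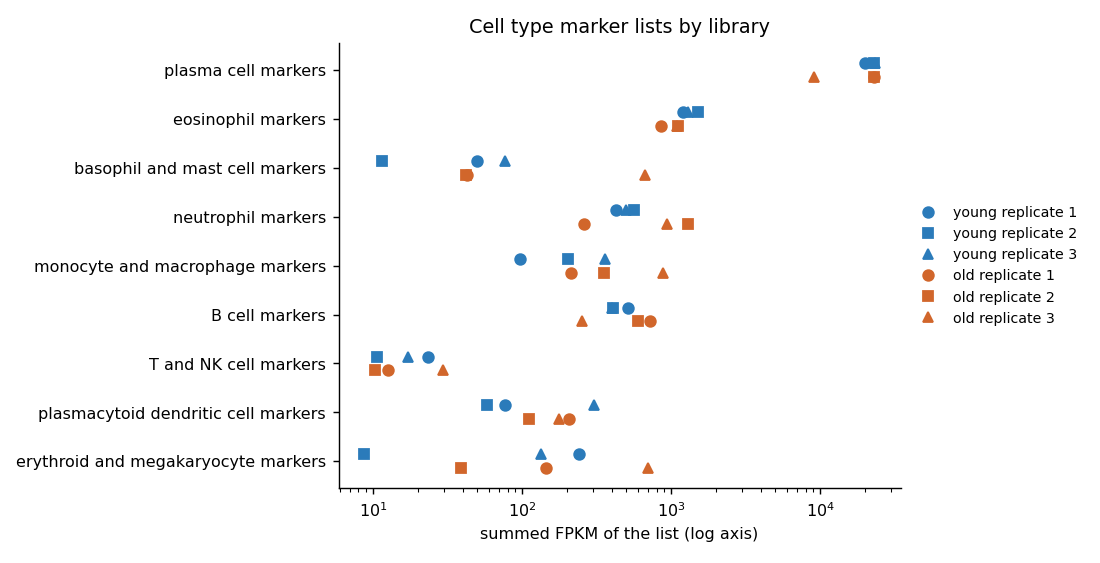
Summed FPKM of each cell type marker list (log axis) in the 6 libraries. Old replicate 3 is lowest for plasma cell markers, at 9087, and highest for basophil and mast cell markers, at 669.

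Differences were tested with limma on log2(FPKM + 1) over the 10687 genes with a mean of at least 1 FPKM, with calls made where the p adjusted by Benjamini-Hochberg was under 0.05. Of the 10 genes 8 passed this filter, and Il21r and Socs3 did not. Limma called 0 of the 8, against 0% of all genes tested. At an unadjusted limma p under 0.05 stood 1 of the 8, Il5ra, against 5.91% of all genes. Old and young values did not overlap for 1 of the 8, again Il5ra, against 12.2% of all genes in either direction and 3.42% with old values lower. A share of that size is near the background and says nothing about the 8 genes as a set. Their log2 changes, old minus young, split 4 and 4 with a median of -0.01, while the median of all tested genes was 0.23. Without old replicate 3, 3 were positive and 5 negative with a median of -0.14, against 0.16 for all tested genes. With all 6 libraries the median of all tested genes depended on level. It was 0.58 for genes with a mean of 1 to 5 FPKM, 0.25 from 5 to 20, 0.05 from 20 to 50 and -0.03 from 50 upward. Il2rg, Jak1, Csf2rb, Il5ra and Il6st averaged 29.2 to 56.5 FPKM, where the median of all tested genes was near 0.

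The chain that binds IL-5 had the lowest limma p of the 8. Il5ra (chromosome 6, 106710357 to 106749037, minus strand, GRCm38) was at 31.3, 51.1 and 42.4 FPKM in young replicates 1 to 3 and at 10.2, 20.1 and 26.8 in old replicates 1 to 3, the order used throughout. Every old library lay below every young one, although young replicate 1 and old replicate 3 were close. The means were 41.6 ± 9.97 and 19.0 ± 8.35 FPKM (SD, n = 3 each), a ratio of 0.457. The log2 change was -1.16 ± 0.48 (SE; 95% interval -2.23 to -0.09), with a limma unadjusted p = 0.0364 and adjusted p = 0.839. Without old replicate 3, which stood apart in its markers, it was -1.44. Without old replicate 1, where Il5ra was lowest, it was -0.79 and the limma unadjusted p = 0.105. Over all 14 alternatives it kept its sign, from -1.44 to -0.79, with limma adjusted p from 0.511 to 0.961.

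Eosinophils also carry the IL-5 receptor, so their markers were set beside it, although eosinophils bear CD11b, which the sort selected against. Of 9 eosinophil markers 8 were in the table, and their summed level was 1210 to 1519 FPKM in young and 861 to 1122 in old libraries. Nearly all of it was Prg2, the granule major basic protein gene, at 1275 ± 72.4 FPKM (SD, n = 3) in young against 1011 ± 134 in old libraries. Its groups did not overlap either. It was 1 of the 6 markers tested to separate with old values lower, against 3.42% of all tested genes. Of the 6 markers tested, 4 had a negative and 2 a positive log2 change, against 61.3% positive among all tested genes. Without old replicate 3 all 6 were negative, against 57.9% positive among all tested genes. Some of these signs rest on 1 library or on values near 0. Outside old replicate 3, Ear2 was above 0 only in young replicate 2, at 3.34 FPKM, and Il1rl1 was at most 0.125 FPKM. Prg3, a relative of Prg2, was at 0, 11.7 and 26.9 FPKM in young and 0, 0.915 and 5.96 in old libraries. The eosinophil receptor genes Siglecf and Ccr3, both too low to be tested, were listed at 0 in all young libraries and reached 1.47 and 2.47 FPKM in old ones. Epx, the eosinophil peroxidase gene, was at 9.94 FPKM in young replicate 2 and at most 0.412 elsewhere, and Ear6 was at 141 in young replicate 2 and at most 0.0775 elsewhere. The part of eosinophils or other Prg2-expressing cells in the Il5ra values was not tested. In bulk samples fewer cells of a type and less RNA per cell cannot be told apart.

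Csf2rb, the beta chain shared by the receptors for IL-5, IL-3 and GM-CSF (chromosome 15, 78325752 to 78353847, plus strand), did not separate the groups. It was at 44.9, 34.9 and 38.1 FPKM in young and 37.0, 32.8 and 51.1 in old libraries. Its highest and lowest values differed by a factor of 1.56, and both were in old libraries. The log2 change was 0.02 (95% interval -0.82 to 0.86; limma adjusted p = 0.996), so that changes in either direction up to these sizes are not excluded. The level of Il5ra per Csf2rb was 0.696, 1.47 and 1.11 in young and 0.274, 0.613 and 0.523 in old libraries. By this ratio the groups did not overlap, and the binding chain was the scarcer one in all old libraries and in young replicate 1.

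**Figure D3:**
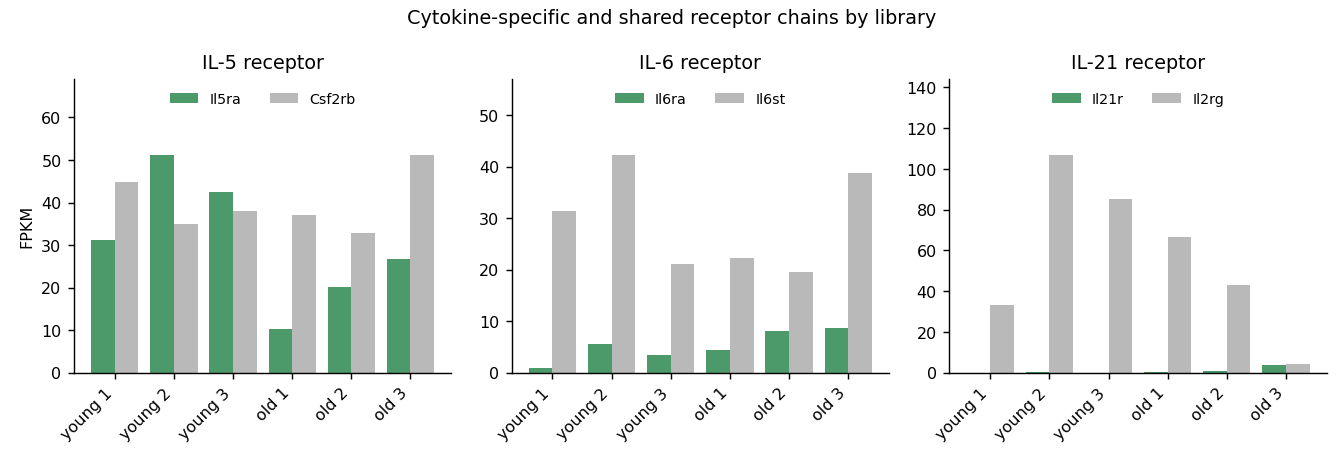
FPKM of the cytokine-specific chain (green) and the shared chain (grey) of each receptor in the 6 libraries, with bars from 0. Il5ra and Csf2rb are of similar height in young libraries, whereas Il6ra stays below Il6st and Il21r below Il2rg in every library.

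Csf2rb has a close copy on the same chromosome, Csf2rb2, which in mice encodes a beta chain used by IL-3. The coding sequences in GENCODE M21, of 2688 and 2634 bases, were identical at 95.2% of 2628 aligned positions, and 6.50% of all 150-base windows of Csf2rb occurred unchanged in Csf2rb2. Most windows of that length thus held a difference. A 60-base stretch with the median number of differences, coding bases 12 to 71 of both, is printed with capitals at the positions that differ.
Csf2rb: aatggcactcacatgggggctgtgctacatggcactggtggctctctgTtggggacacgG
Csf2rb2: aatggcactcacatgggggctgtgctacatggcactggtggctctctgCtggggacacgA
Csf2rb2 was at 3.85, 0 and 0 FPKM in young and 0.0268, 0.111 and 20.5 in old libraries. Its high value was in old replicate 3, where Csf2rb and the basophil and mast cell marker sum were also highest. In the other libraries Csf2rb2 was at most 3.85 FPKM. How reads that match both genes were assigned is not given, and the part of basophils or mast cells in these values was not tested.

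Il6ra, which binds IL-6 (chromosome 3, 89864059 to 89913196, minus strand), was at 0.842, 5.61 and 3.38 FPKM in young and 4.46, 8.07 and 8.70 in old libraries. Its groups overlapped only through young replicate 2, which lay above old replicate 1. The means were 3.28 ± 2.39 and 7.08 ± 2.29 FPKM (SD, n = 3). The log2 change was 1.06 ± 0.83 (SE; limma adjusted p = 0.854). Without young replicate 1, where Il6ra was lowest, the log2 change was 0.54. In GENCODE M21, genes on the opposite strand cover 242 of the 8642 exonic bases of Il6ra and 155 of the 5790 of Fcgr2b. They also cover 72 of the 9527 of Stat3, shared with Stat5a, and 4 of the 7227 of Jak1. Reads from these bases could not be told apart if counting ignored strand.

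Il6st, the signalling chain gp130 (chromosome 13, 112464070 to 112510086, plus strand), was at 31.3, 42.2 and 21.1 FPKM in young and 22.3, 19.5 and 38.8 in old libraries. High and low values occurred in both groups, and the log2 change was -0.23 (95% interval -1.27 to 0.80; limma adjusted p = 0.939). It was -0.52 without old replicate 3, where Il6st was the highest of the old libraries, and -0.003 without young replicate 2, the highest of all. Per unit of Il6st, Il6ra was at 0.0269, 0.133 and 0.160 in young and 0.200, 0.414 and 0.224 in old libraries. The IL-6 binding chain was thus always the scarcer one, and by this ratio the groups did not overlap, with old libraries higher. Set side by side, Il5ra per Csf2rb was lower and Il6ra per Il6st higher in every old library than in any young one. These ratios are descriptions of genes already known here and carry no test, and how often the groups separate for other gene pairs was not examined.

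Il21r (chromosome 7, 125603429 to 125633570, plus strand) was listed at 0, 0.356 and 0 FPKM in young and 0.518, 0.640 and 3.96 in old libraries. Every old value lay above every young one, as for 8.78% of the genes tested, though Il21r itself was too low to be among them. How often genes below the filter separate this way was not examined. At the depth of these libraries the young replicate 2 value stands for about 30.0 fragments and the old ones for about 46.7, 60.1 and 363. Without the filter the log2 change of Il21r was 1.06 ± 0.51 (SE; limma adjusted p = 0.761). The highest value was again in old replicate 3.

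Il2rg, the common gamma chain (chromosome X, 101264378 to 101268255, minus strand), had the widest spread among the 8 tested genes. It was at 33.1, 107 and 85.3 FPKM in young and 66.5, 42.9 and 4.35 in old libraries, a factor of 24.6 between the highest and the lowest. Only old replicate 3 lay below all young libraries. The log2 change was -1.44 ± 0.86 (SE; limma adjusted p = 0.844) with all libraries and -0.33 without old replicate 3 (limma adjusted p = 0.960). The gene is on chromosome X while the groups differ in sex, and it shares 728 of its 2387 annotated exonic bases with the gene Gm20489 on the same strand. Per unit of Il2rg, Il21r was at 0, 0.00333 and 0 in young and 0.00779, 0.0149 and 0.911 in old libraries. This ratio did not overlap between the groups either, and it rests on the few fragments of Il21r in young libraries and, in old replicate 3, on a low shared chain and a high specific chain.

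**Figure D4:**
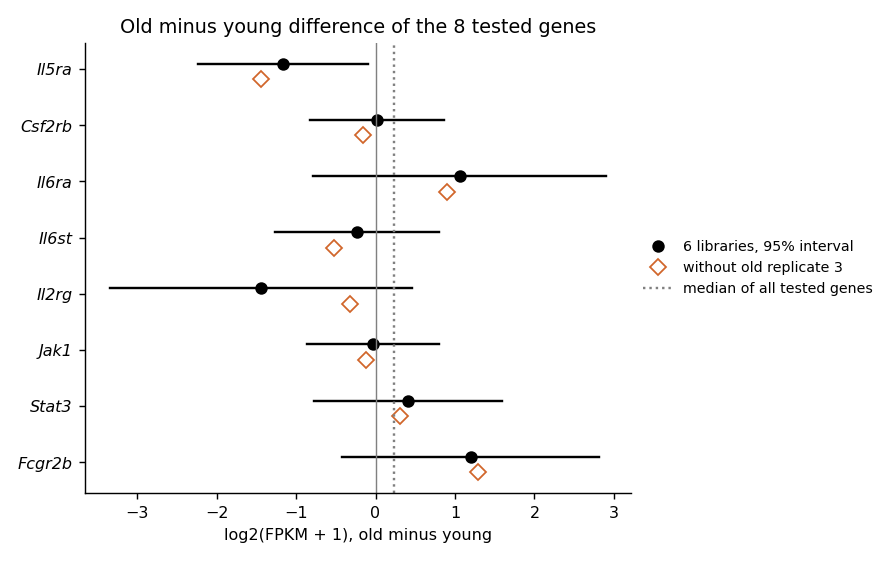
Log2(FPKM + 1) difference, old minus young, of the 8 tested genes with 95% limma intervals (filled circles and lines) and the value without old replicate 3 (open diamonds); the dotted line is the median of all tested genes. The Il5ra interval ends at -0.09, the other 7 include 0, and Il2rg moves from -1.44 to -0.33 when old replicate 3 is left out.

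Jak1, the kinase bound by gp130 and by several other chains (chromosome 4, 101152367 to 101265282, minus strand), was at 47.4, 50.4 and 47.1 FPKM in young and 60.1, 32.8 and 53.1 in old libraries. The young values were nearly equal, and the old values spread to both sides of them. The log2 change was -0.03 (95% interval -0.87 to 0.80; limma adjusted p = 0.994).

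Stat3, the transcription factor (chromosome 11, 100885098 to 100939540, minus strand), was at 16.2, 10.2 and 9.25 FPKM in young and 12.6, 16.7 and 18.5 in old libraries. Young replicate 1 reached into the old range, and the log2 change was 0.41 ± 0.53 (SE; limma adjusted p = 0.897).

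Socs3, the feedback inhibitor (chromosome 11, 117966079 to 117970047, minus strand), was listed at 0 in 5 libraries and at 0.996 FPKM in old replicate 2, which stands for about 81.3 fragments. No group difference can be read from 1 library. The 250 bases before and 50 bases after the RefSeq start of each gene on GRCm38.p6 were searched for TTCNNNGAA, the palindromic core that STAT dimers recognise and that reads the same on both strands. A window was available for 9 of the 10 genes, and 1 of the 9, Socs3, held the motif, against 8.30% of 32851 windows of all genes. Its upstream stretch is shown because Socs3 is the classical STAT3 feedback gene and was nonetheless nearly undetected; it covers bases -250 to -86 from the RefSeq start (chr11:117969452-117969616, minus strand) with the motif, at -154 to -146, in capitals. GENCODE M21 has a further Socs3 transcript that starts upstream of this stretch, which lies in none of its exons. For comparison, bases -150 to -1 before the Il5ra start (chr6:106749038-106749187, minus strand), where expression was plain and differed most between the groups by p, held no such motif.
Socs3: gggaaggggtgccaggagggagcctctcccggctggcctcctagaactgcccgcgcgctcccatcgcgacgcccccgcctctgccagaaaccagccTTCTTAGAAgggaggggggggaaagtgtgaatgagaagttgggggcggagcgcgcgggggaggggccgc
Il5ra: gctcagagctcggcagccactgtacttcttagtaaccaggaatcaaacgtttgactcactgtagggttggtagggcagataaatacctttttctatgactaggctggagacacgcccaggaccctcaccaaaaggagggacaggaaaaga
A motif match is a description of these letters and not a binding site.

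Fcgr2b (chromosome 1, 170958617 to 170976547, minus strand) was at 11.0, 27.7 and 2.68 FPKM in young and 22.4, 28.8 and 21.0 in old libraries. The old values were close together and the young values far apart, with young replicate 2 inside the old range. The means were 13.8 ± 12.8 and 24.0 ± 4.19 FPKM (SD, n = 3). The log2 change was 1.20 ± 0.73 (SE; limma adjusted p = 0.844), 0.42 without young replicate 3, where Fcgr2b was lowest, and 1.90 without young replicate 2, the highest young library (limma unadjusted p = 0.0224 and adjusted p = 0.709). B cells and myeloid cells also express Fcgr2b, and the sort selected against B220 and CD11b. The summed B cell markers, all 10 in the table, were at 399 to 514 FPKM in young and 252 to 722 in old libraries, and the lowest sum was in old replicate 3, where Fcgr2b was at 21.0. Cd79a and Cd79b, which plasma cells also express, made up most of these sums. The B cell genes Blk, a kinase, at 11.0, 15.4 and 2.56 FPKM in young and 44.9, 43.6 and 16.1 in old libraries, and Ms4a1, the CD20 gene, at 2.68, 6.15 and 1.41 against 25.3, 15.5 and 6.31, were higher in every old library than in any young one, as was Lyz2 among the monocyte genes. Pax5, the B cell identity factor, was lower in every old library, at 2.77, 7.26 and 2.45 against 2.08, 2.03 and 2.44. Of the 9 B cell markers tested, 2 thus separated with old values higher and 1 with old values lower. Among all tested genes these shares were 8.78% and 3.42%. Within the young group Fcgr2b, Blk and Ms4a1 were all highest in replicate 2 and lowest in replicate 3. The part of other cells in the Fcgr2b values was not tested.

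Receptors of the same IgG family were uneven. Fcgr3, an activating receptor similar in sequence to Fcgr2b, was at 7.71, 30.1 and 0 FPKM in young and 0.552, 11.8 and 67.4 in old libraries. Of the 11 other Fc receptor and partner genes 8 were tested, 6 with a positive and 2 with a negative log2 change, and limma called 0. By limma p the first were Fcmr, the IgM receptor, at 38.4 ± 7.18 against 24.4 ± 9.35 FPKM, and Syk, a kinase that Fcgr2b signalling opposes, at 82.1 ± 9.97 against 65.8 ± 2.67 (SD, n = 3). Of the 8 tested, 1, Syk, separated with old values lower, against 3.42% of all tested genes, and 0 with old values higher, against 8.78%. Fcer1g, the signalling chain of activating receptors, was at 0.235, 1.40 and 51.4 in young and 1.24, 18.7 and 70.7 in old libraries. Inpp5d, which encodes the phosphatase SHIP1 recruited by Fcgr2b, was at 28.2 ± 7.74 against 36.0 ± 2.05 FPKM.

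Many other cytokine receptor chains had their highest value in old replicate 3. Of 29 listed chains 27 were in the table and 23 were tested, and 14 of the 23 were highest in old replicate 3, against 21.2% of all tested genes. Of the 23, 19 had a positive log2 change, against 61.3% of all tested genes, with a median of 0.82. Without old replicate 3 these were 14 of 23, against 57.9%, and a median of 0.16. Limma called 0. Csf2ra, the GM-CSF receptor alpha chain that pairs with Csf2rb, was at 27.1, 17.6 and 6.12 FPKM in young and 19.1, 25.0 and 69.1 in old libraries. Il3ra, the IL-3 binding chain and another Csf2rb partner, was at 6.86, 8.88 and 0 against 10.2, 15.8 and 19.3, with no overlap. Of the 23 chains 3 separated with old values higher, against 8.78% of all tested genes. The basophil and mast cell, monocyte and erythroid marker sums were also highest in old replicate 3, and their part in these values was not tested.

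The chains with an unadjusted limma p under 0.05 were Ifnar2 and Il2rb, 2 of the 23, against 4.66% of all genes with higher old values. Ifnar2, a chain of the type I interferon receptor, was at 8.97, 1.25 and 6.89 FPKM in young and 10.1, 21.7 and 43.7 in old libraries (log2 change 1.99 ± 0.79, SE; limma adjusted p = 0.829). Il2rb, a chain of the IL-2 and IL-15 receptors that works with Il2rg, was at 17.0, 0 and 0 against 12.7, 22.4 and 13.4 (limma adjusted p = 0.839). Its groups overlapped through young replicate 1. The gp130 relatives and partners Lifr, Osmr and Lepr were at most 1.27, 0.301 and 0.106 FPKM in any library, so Il6st was by far the most abundant of the 4 chains.

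The other kinases and STAT factors had a median log2 change near 0 with all 6 libraries. All 9 other JAK and STAT genes were tested, 5 with a positive and 4 with a negative log2 change and a median of 0.06. Limma called 0. Without old replicate 3, 3 were positive and 6 negative with a median of -0.27, while the median of all tested genes was 0.16. By limma p the first was Tyk2, a kinase that also binds gp130, at 33.2 ± 3.47 FPKM (SD, n = 3) in young against 23.8 ± 5.53 in old libraries, with a limma adjusted p = 0.854. Jak3, the partner of Il2rg, was at 14.8, 20.7 and 16.3 FPKM in young and 15.3, 12.8 and 10.9 in old libraries, and Stat2 was at 21.0 ± 10.1 against 25.9 ± 2.79 (SD, n = 3). Jak3 kept to 10.9 to 20.7 FPKM over all libraries while Il2rg did not.

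Among the 16 other inhibitors of cytokine signalling, all tested, 7 had a positive and 9 a negative log2 change, and limma called 0. Ptpn1, a phosphatase that acts on JAK kinases, was at 33.4, 26.2 and 37.5 FPKM in young and 18.1, 13.1 and 16.8 in old libraries, with no overlap (log2 change -0.97 ± 0.44, SE; limma adjusted p = 0.839). Of the 16, 1 separated with old values lower and 1 with old values higher, against 3.42% and 8.78% of all tested genes. Ptprc, the phosphatase CD45, was at 22.3 ± 3.31 against 39.6 ± 12.5 FPKM (SD, n = 3). Socs1, a relative of Socs3, was at 1.95, 34.8 and 0 against 1.41, 0.783 and 0.225, high in young replicate 2 alone.

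Of 15 listed genes that STAT3 is known to induce in various cell types, 14 were tested, 5 with a positive and 9 with a negative log2 change. Their median was -0.55, and -0.56 without old replicate 3. Limma called 0. At an unadjusted limma p under 0.05 stood 3 of the 14, all lower, against 1.25% of all genes. The groups of 4 did not overlap, all with old values lower, against 3.42%. Both shares are over tested genes of every level, and the median log2 change of all genes fell with level. It went from 0.58 at 1 to 5 FPKM to -0.03 from 50 FPKM upward. The shares among genes at the levels of these 14 were not examined. These genes answer to other factors as well, and some are survival genes of plasma cells. Of the 10 plasma cell markers, 9 had a negative log2 change with a median of -0.26, and 5 of the 10 without old replicate 3; Prdm1 is on both lists. Both the STAT3 target list and the plasma cell marker list were drawn up with results of these data known. Their counts are therefore descriptions and carry no independent test.

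The 4 genes were Pim2, Bcl3, Mcl1 and Icam1. Pim2, a survival kinase gene, was at 43.1, 42.1 and 92.4 FPKM in young and 19.5, 23.3 and 5.62 in old libraries (log2 change -1.92 ± 0.59, SE; limma adjusted p = 0.736). Bcl3, a nuclear regulator of NF-kB, was at 13.7, 16.4 and 64.7 against 8.23, 5.01 and 2.38. Both were lowest in old replicate 3. Mcl1, the survival factor that plasma cells depend on, was at 280, 237 and 282 against 140, 170 and 208 (log2 change -0.64 ± 0.28, SE; limma adjusted p = 0.839). Old replicate 3 was the highest of the old libraries for Mcl1. Icam1, an adhesion molecule, was at 23.2 ± 7.70 against 12.9 ± 1.65 FPKM (SD, n = 3).

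**Figure D5:**
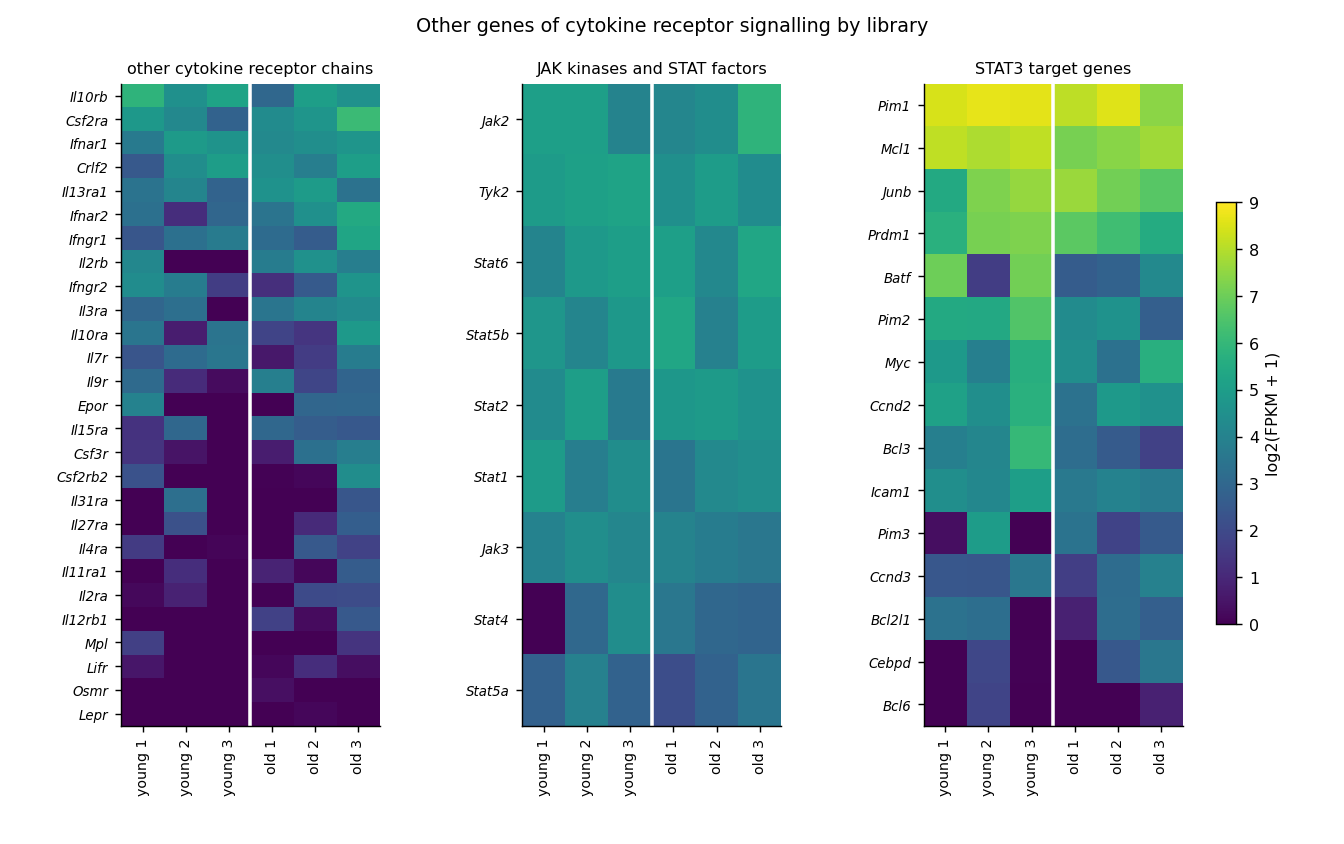
Log2(FPKM + 1) of the other cytokine receptor chains, the other JAK and STAT genes and the STAT3 target genes in the 6 libraries, sorted by mean level; the white line parts young from old. Many receptor chains are brightest in old replicate 3, while Pim2, Bcl3, Mcl1 and Icam1 are darker in each old library than in any young one.

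Of 19 ligands 10 were in the table and 4 were tested, and apart from Ebi3 each of the 10 was at most 10.1 FPKM in any library. Il6 was listed at 0 in every young library and at 0.0293, 0 and 2.44 FPKM in old ones. Osm, which also signals through gp130, was listed at 0 in every young library too and at 0, 0.511 and 7.20 FPKM in old ones. Both were highest in old replicate 3. Ebi3, a subunit of IL-27 and IL-35, was at 27.0, 93.1 and 0.0673 FPKM in young and 3.43, 2.31 and 1.65 in old libraries, and Il15 at 0, 1.01 and 3.50 against 7.27, 1.23 and 5.52. Limma called 0 of the 4. Adam10 and Adam17, proteases that shed the IL-6 receptor, were at 19.1 ± 11.6 against 34.1 ± 11.7 and 9.14 ± 5.29 against 12.6 ± 5.89 FPKM (SD, n = 3), and Erbin was at 40.0 ± 11.7 against 48.7 ± 10.3. All 4 genes of that list had a positive log2 change and limma called 0.

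The profile most like that of Il5ra over the 6 libraries was that of Stard3, a lysosomal sterol transport gene. Likeness was measured as the root mean square difference of log2(FPKM + 1), each gene centred on its own mean, among 7392 genes of at least 5 FPKM. It was 0.11 for Stard3, at 6.51, 12.9 and 8.86 FPKM in young and 2.07, 3.72 and 5.66 in old libraries, and 0.26 for Tob2, against an SD of Il5ra itself of 0.80. For the others the nearest genes were Hsp90ab1 for Csf2rb (0.08), Trappc3 for Il6ra (0.23), Bcl2l13 for Il6st (0.12), Poldip3 for Jak1 (0.10), Rnf4 for Stat3 (0.08) and Polrmt for Fcgr2b (0.20). For Il2rg, whose own SD was 1.57, the nearest was Timm21 at 0.48, which had its lowest value, 1.28 FPKM, in old replicate 3 as well. With 6 libraries and this many candidates such likeness is a description.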

How the data were processed

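The authors' deposited table holds FPKM values per gene, fragments scaled to gene length and library size, with 1 column per library. The submitters' processing notes name bcl2fastq 2.17, STAR, DESeq2, GRCm38 and mm10 without roles. The counter, annotation and strand setting are not given in the sources used here, so reads of overlapping or near-identical genes may be split or merged. The stranded template-switching kit started from 5 ng of RNA and used amplification, per the labels' protocols, so fragments are not independent molecules. FPKM sums are not depths. With merged exon lengths from GENCODE M21, the lowest steps of the values put the depth at about 24.5, 25.4 and 22.4 M fragments in young and 27.1, 28.2 and 27.6 M in old libraries, and the fragment numbers given rest on this estimate. Genes above 0 numbered 8934 to 10664 in young and 11310 to 12049 in old libraries, and a gene at 0 is described as listed at 0.

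Log2(FPKM + 1) was fitted with limma 3.58.1 (R 4.3.3, mean-variance trend, two-sided, Benjamini-Hochberg) over 10687 genes with a mean of at least 1 FPKM. The log2 scale with its pseudocount of 1 FPKM understates changes of low genes. Scripts were tested on simulated data with less spread than the real libraries and with large planted changes. That checks the code and not how well changes can be found in these data. The 10 genes, the lists and the tests were chosen with earlier results of these data known. Named are the 10 genes and the close copy Csf2rb2, from each list of pathway genes those with an unadjusted p under 0.05 or otherwise the 3 of smallest p, markers needed to describe other cells, and the genes of most similar profile. Others (Elane, Ctsg, Mpo, Prtn3, S100a9, Ltf, Camp, Ngp, Lyz2, Prg3, Blk, Ms4a1, Pax5, Csf2ra, Il3ra, Lifr, Osmr, Lepr, Fcgr3, Inpp5d, Icam1, Il6, Adam17) were named after their values were seen. Upstream sequences and their coordinates are RefSeq's on GRCm38.p6, and coding sequences are GENCODE M21's. Alternatives were the pseudocount, the filter, 2 scalings, no trend, array weights, a replicate block and each library left out.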

Additional observations from a re-analysis of the deposited data

How the results depend on the processing

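Over 14 alternatives limma called 0 of the 8 tested genes each time, and 0 of all 10 without the filter, and 0 genes of the table except 1 under quantile normalization and 1 with array weights. The number of genes with an unadjusted p under 0.05 was 632, against 383 among genes of 5 FPKM or more and 983 without young replicate 1. Il5ra had an unadjusted limma p under 0.05 in 9 of 14 alternatives. It kept its sign in all of them, as did Il6ra, Il6st, Il2rg, Stat3 and Fcgr2b. Csf2rb changed sign under median-ratio scaling (-0.079) and array weights (-0.090) and ranged from -0.16 to 0.15 with single libraries left out. Jak1 changed sign under quantile normalization (0.051) and ranged from -0.21 to 0.22 with single libraries left out. Both are close to 0, and the cause was not tested. Fits with a lone pair in one group assume the same spread in both. Replicate numbers did not pair the libraries: deviations of same-numbered libraries correlated at -0.03, 0.02 and -0.004, and no young library correlated best with its own number. With the replicate block limma called 0 genes and 571 had an unadjusted p under 0.05, and Il5ra stayed at -1.16 (limma unadjusted p = 0.0387). Il21r was listed at 0 in young replicates 1 and 3 and stood for about 30.0 fragments in young replicate 2. As fragments are not independent molecules, the number of molecules behind these values is not known.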
